A study of Arabidopsis thaliana with 3 samples.

Results

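The genes M17, KIN2, LTI30, COR47, SRC2 and STZ were grouped as cold and dehydration response genes of Arabidopsis thaliana. They were followed in whole seedlings on every probe set that the array's annotation gives to 1 of them alone. These were 9 probe sets, of 3794 annotated to a single gene, and 6 genes of the 3602 so named. M17, LTI30 and SRC2 rest on 1 probe set each, 16896_s_at, 19186_s_at and 17900_s_at. All of these carry a suffix that marks shared or incomplete probe selection. The genes were chosen with their signals on these arrays known, and those signals are therefore given as a description.

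The study measured total RNA of whole Col-0 seedlings, harvested at growth stage 1.02 from MS medium with 0.5% sucrose under a day of 16 h light and 8 h dark. There were 3 groups with 1 Affymetrix array each. The first was wild type with no genetic modification. The second was the mutant ppi1, whose label gives a T-DNA insertion in Toc33, and the last was line 75-IV, whose label gives one in Toc75. Proteins enter plastids through a translocon in the outer envelope, in which Toc33 acts as a receptor and Toc75 as the pore. The series title names the second mutant ppi3. The locus on the label of line 75-IV, AT4G09070, differs from that of TOC75-IV in RefSeq, AT4G09080. Only the line name is therefore used, and no loss of the pore is assumed for this line. No treatment with cold, drought or abscisic acid is named in the labels. The number of plants pooled is blank, and each mutant is represented by 1 line. Without replicates no test was possible, and each difference below is one between 2 arrays. In such bulk RNA, fewer cells of a type and less RNA per cell cannot be told apart.

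Plants that meet cold or lose water switch on a large set of protective genes. Cold acts mainly through the CBF transcription factors, which bind the CRT/DRE element of promoters, and drying acts largely through the hormone abscisic acid and its response elements. Many of the proteins made are very hydrophilic and belong to the late embryogenesis abundant (LEA) proteins, which include the dehydrins and were first found in maturing seeds. Zinc finger repressors such as STZ, also called ZAT10, are induced by the same stresses.

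Signals are given in the linear units of the deposited table, 1 value per probe set. Trimmed means were 100.2 on each of the 3 arrays, so the arrays had been scaled to a common average. A floor of 14.8, the 40th percentile of all signals, marked the level below which a signal was not read. The scanner's background lay between 50.5 and 62.0 and its noise between 1.65 and 2.49, both highest for ppi1, and 504 of 285156 cells were marked as outliers on the ppi1 array against 11 and 20 on the others. The 3' to 5' ratio of the control gene GAPDH was 18.7 on the wild-type array, 1.61 for ppi1 and 2.42 for line 75-IV, and that of ubiquitin was 4.16, 2.75 and 3.51, so the wild-type array was far from the others on GAPDH and nearer to line 75-IV on ubiquitin. TOC33, AT4G09070 and TOC75-IV had 0 probe sets of their own in the annotation, which leaves the labels without a check from the mutated genes. Of 6 leaf markers 4 had a probe set, and all 4 were above the floor on every array. Of 8 root markers none had a probe set of its own.

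In the ppi1 array, transcripts of a LEA protein, a small cold-induced protein and a dehydrin were lower than in both other arrays. The transcript of a C2-domain protein named after a cold-regulated soybean gene was higher than in both. M17, KIN2 and LTI30 stood 5.10-fold, 3.44-fold and 2.60-fold below wild type, and SRC2 stood 2.64-fold above it. COR47 and STZ differed by less than 2-fold. In line 75-IV, none of the 6 genes differed from wild type by 2-fold or more, as 1.88% of all genes above the floor did. All 9 probe sets were above the floor on all 3 arrays.

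**Figure D1:**
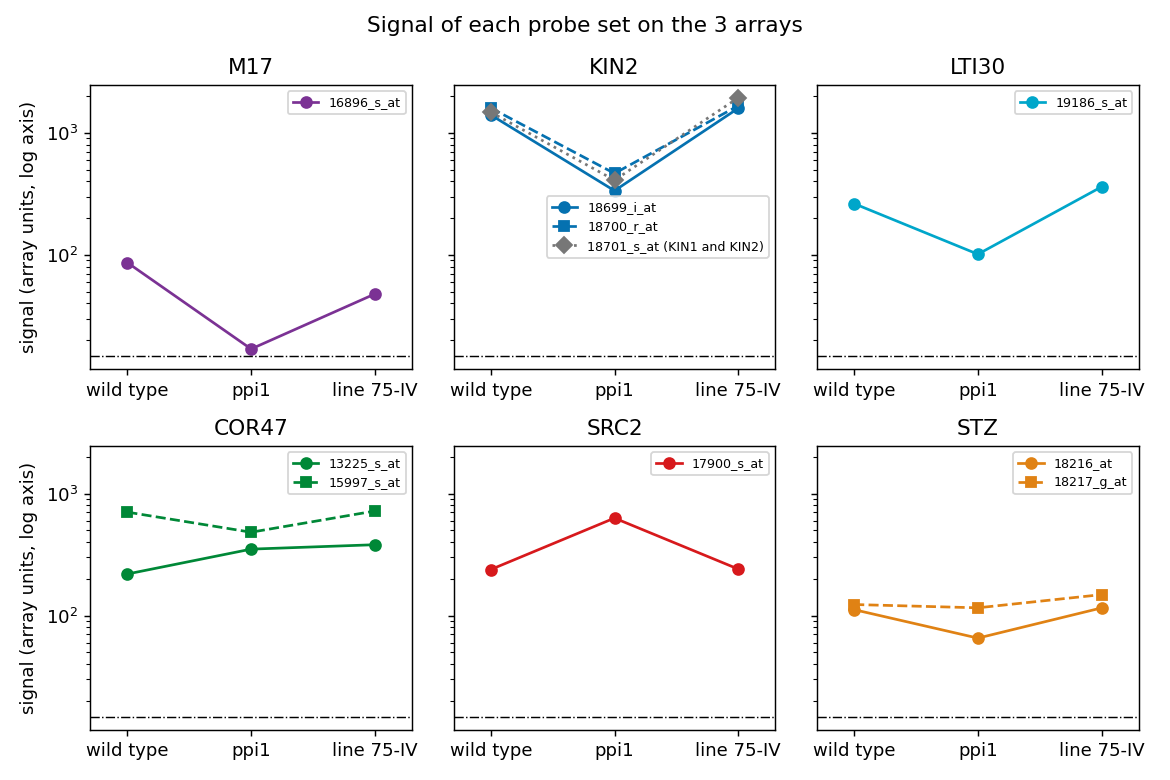
Signal of each probe set (log axis, array units) on the wild-type, ppi1 and line 75-IV arrays, 1 panel per gene, with 1 point per array, lines joining the points of a probe set and the dash-dotted line at the floor of 14.8. KIN2, LTI30 and M17 dip at ppi1 and SRC2 peaks there, while the COR47 probe sets take different courses.

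KIN2, also called COR6.6, encodes a small, very hydrophilic protein induced by cold and abscisic acid. Its signal on the probe set 18700_r_at was 1596.6 on the wild-type array, 464.7 on the ppi1 array and 1666.1 on that of line 75-IV. On the other probe set of the gene, 18699_i_at, it was 1401.1, 335.2 and 1588.6 in the same order. Wild type and line 75-IV lay close together on both, and ppi1 lay far below them. The log2 ratio of ppi1 to wild type was -1.78 on the first and -2.06 on the second, and that of ppi1 to line 75-IV was -1.84 and -2.24. Line 75-IV against wild type had log2 ratios of 0.06 and 0.18.

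KIN1 neighbours KIN2 on the chromosome and is closely related to it, and another probe set, 18701_s_at, is annotated to both genes. It is not among the 9 probe sets, but it ran the same way, at 1475.9 for wild type, 409.2 for ppi1 and 1934.5 for line 75-IV. Its log2 ratio was -1.85 for ppi1 against wild type and 0.39 for line 75-IV against wild type. Because the genes are so alike, how much of the KIN2 signal came from KIN1 could not be separated with these values.

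LTI30, also called XERO2, is a dehydrin induced by low temperature. Its signal was 262.4 in wild-type seedlings, 101.1 in ppi1 and 360.7 in line 75-IV. The ppi1 array was again the lowest, and line 75-IV was the highest. The log2 ratio was -1.38 for ppi1 against wild type, 0.46 for line 75-IV against wild type and -1.84 for ppi1 against line 75-IV, a 3.57-fold difference between the mutants. When the arrays were scaled to the bacterial spike-in controls, the ratio of ppi1 to wild type came to -0.89, under 2-fold.

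COR47, also called RD17, is a second dehydrin, of the acidic kind, and its probe sets did not move together. The probe set 15997_s_at read 703.9 on the wild-type array, 481.9 on the ppi1 array and 719.0 on that of line 75-IV. The probe set 13225_s_at read 219.1, 350.2 and 380.7 in the same order. On the first, ppi1 was the low array, and on the second, wild type was the low array and both mutants were higher. The log2 ratio of ppi1 to wild type was therefore -0.55 on one and 0.68 on the other, a gap of 1.22, and that of line 75-IV to wild type was 0.03 and 0.80. Of 83 genes with more than 1 probe set above the floor in ppi1 and wild type, 11 had a gap at least as wide, COR47 included, and the median gap was 0.49. Between the mutants both probe sets were lower in ppi1, with log2 ratios of -0.58 and -0.12, and under the spike-in scaling both came out above 0, the first at 0.08. No direction against wild type is given for COR47 as a gene.

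M17 encodes a LEA protein of late seed development. Its signal was 86.2 for wild type, 16.9 for ppi1 and 47.7 for line 75-IV. The order was wild type, line 75-IV, ppi1, and the ppi1 value was 1.14 times the floor. Its signal was lower in both mutants than in wild type, with log2 ratios of -2.35 in ppi1 and -0.85 in line 75-IV. Under the spike-in scaling the M17 ratio in line 75-IV came to -1.03, past 2-fold, and that of ppi1 to line 75-IV went from -1.50 to -0.84. With the floor at the 60th percentile, M17 was no longer read in ppi1.

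Seeds and embryos are where M17 is best known, so the seed markers were read beside it. Of 13 seed and embryo markers, 1 had a probe set of its own, the glyoxylate cycle gene ICL, and it lay below the floor on all arrays at 1.9, 6.4 and 2.5 in wild type, ppi1 and line 75-IV. M10, a LEA gene related to M17, was below the floor as well, at 8.5, 7.4 and 6.7.

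SRC2 encodes a protein with a C2 domain, a lipid-binding fold, and is named after a soybean gene regulated by cold. Its signal was 238.4 in wild-type seedlings, 629.4 in ppi1 and 240.5 in line 75-IV. Wild type and line 75-IV were nearly equal, and ppi1 was higher. The log2 ratio was 1.40 for ppi1 against wild type, 0.01 for line 75-IV against wild type and 1.39 for ppi1 against line 75-IV.

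STZ, the salt tolerance zinc finger or ZAT10, is a transcriptional repressor induced by cold, salt and drying, and the 1 transcription factor among the 6 genes. On the probe set 18217_g_at its signal was 123.1 on the wild-type array, 115.7 on the ppi1 array and 148.4 on that of line 75-IV. On the probe set 18216_at, the 1 member probe set without a suffix that marks shared or incomplete probe selection, it was 111.7, 65.3 and 115.5. The second showed a lower ppi1 value that the first showed only slightly, with log2 ratios of ppi1 to wild type of -0.77 and -0.09. Against line 75-IV the ratios of ppi1 were -0.82 and -0.36. Under the spike-in scaling the value from 18217_g_at became 0.39 against wild type and 0.30 against line 75-IV, so its direction followed the scaling.

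The place of a probe set among the 8247 non-control probe sets of its own array is not affected by scaling with 1 factor per array. M17 stood at the 75.1 percentile in wild type, the 40.9 in ppi1 and the 63.3 in line 75-IV. LTI30 stood at the 88.5, 76.9 and 91.2 percentile, and SRC2 at the 87.8, 94.5 and 87.6. KIN2 on 18700_r_at went from the 97.8 percentile in wild type to the 92.9 in ppi1, and was at the 98.0 in line 75-IV. These are the same signals on another scale. For STZ, 18216_at fell at the 78.9, 69.0 and 79.0 percentile and 18217_g_at at the 80.5, 79.2 and 82.4.

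**Figure D2:**
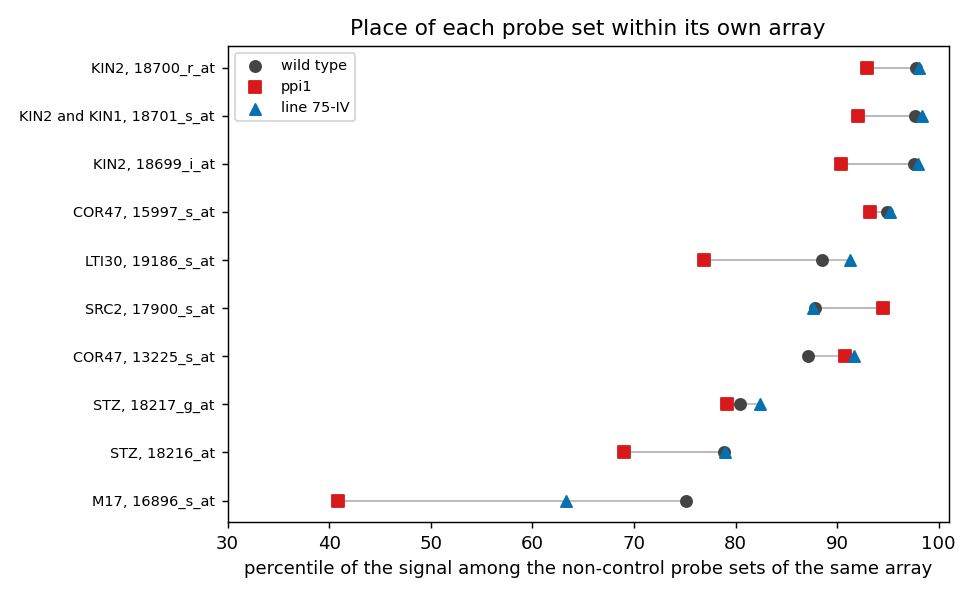
Percentile of each probe set among the non-control probe sets of its own array, 1 row per probe set and 1 symbol per array (circle, wild type; square, ppi1; triangle, line 75-IV). M17 spans the 40.9 to the 75.1 percentile, and the ppi1 square lies left of both other symbols for KIN2 and LTI30 and right of them for SRC2.

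For comparison with all genes, each gene was represented by its brightest probe set. Among 1861 genes above the floor in ppi1 and wild type, 2.42% were at least 2-fold lower and 4.3% at least 2-fold higher in ppi1. Of the 6 genes 3 were lower and 1 was higher by that much, a count that the choice of the genes fixes and from which nothing is read. M17 had the lowest ratio of the 1861 genes, and KIN2 was at rank 8 and LTI30 at rank 12 from the lowest. COR47 was at rank 184 and STZ at 644 from the lowest, and SRC2 was at rank 25 from the highest. Genes below the floor in ppi1 were not ranked, and M17 entered the ranking at 1.14 times the floor. The median log2 ratio of the 6 genes was -0.96, and that of all genes was 0.11. The same choice lies behind the ranks and the median, so nothing is read from them either.

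In line 75-IV against wild type, 0.429% of 1863 genes were at least 2-fold lower and 1.45% at least 2-fold higher, and 0 of the 6 genes were in either class. M17 ranked 14 from the lowest, and LTI30 ranked 243 from the highest. The median of the 6 genes was 0.05 and that of all genes 0.05. Both comparisons share the wild-type array, so their values are given side by side and not as separate evidence.

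Between the mutants, 3.5% of 1888 genes were at least 2-fold lower and 2.75% at least 2-fold higher in ppi1 than in line 75-IV, and 3 and 1 of the 6 genes were. KIN2 and LTI30 ranked 8 and 9 from the lowest, M17 ranked 25, and SRC2 ranked 15 from the highest. The median was -1.04 for the 6 genes and 0.07 for all genes. Here too the counts, ranks and median follow from the choice of the genes, and nothing is read from them. This comparison does not use the wild-type array, but it uses the same ppi1 array as the comparison of ppi1 with wild type. Its log2 ratios are the differences between those of the other comparisons, so they are not separate evidence.

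**Figure D3:**
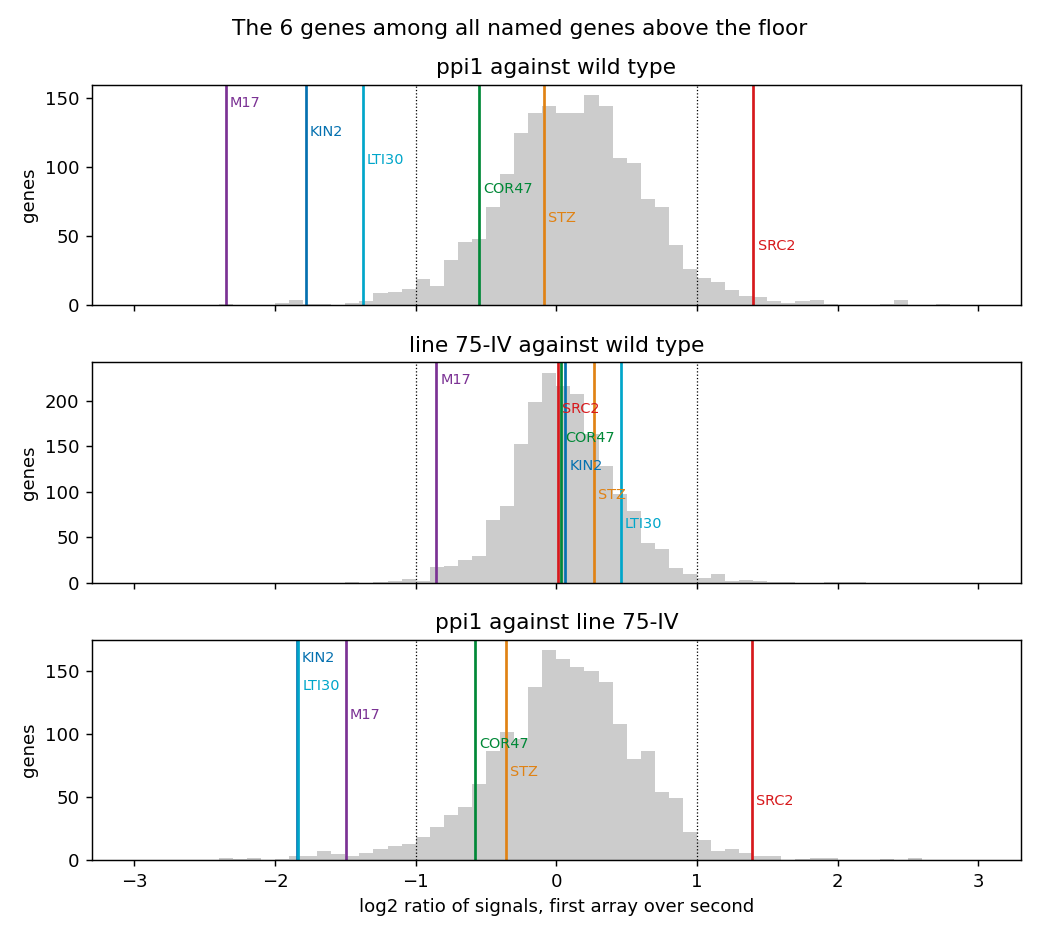
Histograms of the log2 ratio of all named genes above the floor (1861, 1863 and 1888 genes from top to bottom), with a coloured line for each of the 6 genes and dotted lines at 2-fold. M17, KIN2 and LTI30 lie in the lower tail and SRC2 in the upper tail wherever ppi1 is compared, and in line 75-IV against wild type all 6 lie inside 2-fold.

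The other measures that moved with ppi1 were these. The summed signal of the 4 leaf markers was 6670.1 for wild type, 3491.6 for ppi1 and 6003.2 for line 75-IV, so as deposited it was lowest in the array in which KIN2, LTI30 and M17 were lowest. PSAN, a photosystem I subunit, was the largest part of the sum on each array, at 3755.6, 1628.9 and 3193.5 in the same order. The Calvin cycle genes PRK and SBPASE were at 1888.4, 1130.1 and 1665.6 and at 901.9, 673.7 and 970.0, and the light-harvesting gene LHCB4.3 was at 124.2, 58.9 and 174.1. All 4 were thus lower in ppi1 than in wild type, though SBPASE had a log2 ratio of 0.06 under the spike-in scaling. In line 75-IV, LHCB4.3 was higher than in wild type and PSAN and PRK were lower, while SBPASE was higher as deposited and lower after median centring (-0.02) and spike-in scaling (-0.07). The 9 bacterial spike-in probe sets had a mean log2 ratio of -0.48 for ppi1 against wild type and 0.18 for line 75-IV against wild type. All 4 leaf markers are photosynthesis genes, so their sum does not measure leaf content alone. The part of leaf content or array quality in the ratios was not tested.

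Other genes of the pathway were thinly covered. The 7 pathway lists named 93 genes, from dehydrins and cold-regulated proteins to abscisic acid signalling, and 12 had a probe set of their own, 6 of which are the genes described above. None of the 14 abscisic acid genes and, beside STZ, none of the 14 listed transcription regulators, the CBF genes among them, had one. COR15B, a cold-regulated protein of the chloroplast stroma, had a signal of 18.3 in wild-type seedlings, 0.7 in ppi1 and 29.2 in line 75-IV. It was thus below the floor in ppi1 and little above it elsewhere, at least 1.24-fold lower in ppi1 than in wild type and at least 1.97-fold lower than in line 75-IV when set against the floor.

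ZAT7, a zinc finger gene related to STZ, was likewise below the floor in ppi1 on both of its probe sets, at 1.6 and 1.7. It read 29.1 and 19.7 in wild type and 28.7 and 18.0 in line 75-IV. DI21, a drought-induced gene, was at 335.9 on the wild-type array, 289.1 on the ppi1 array and 320.5 on that of line 75-IV on its brighter probe set, a log2 ratio of -0.22 for ppi1 against wild type, and at 60.5, 72.2 and 88.9 on the other, a ratio of 0.26. LEA4-5, a LEA gene, was near the floor at 18.1, 21.5 and 19.4. The LEA gene AT3G15670 was below the floor throughout. Of the 6 list genes that are not among those described above, 2 could be read in both ppi1 and wild type and 0 of them differed by 2-fold, against 6.72% of all genes in either direction. Between the mutants 2 could be read and 0 differed by 2-fold, against 6.25% of all genes. In line 75-IV against wild type 4 could be read and 0 differed, against 1.88%. At these shares 0 of 2 or 0 of 4 shows nothing particular. COR15B and ZAT7, below the floor in ppi1, are not counted in the comparisons of ppi1.

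The genes whose course over the 3 arrays was most like that of a member were found by the distance between their pairs of log2 ratios to wild type. This was done over 1795 other genes above the floor on all arrays, for the 4 members with a 2-fold difference in any comparison. Nearest to KIN2 was ATSPS4F, a sucrose phosphate synthase gene, at 107.8 for wild type, 28.7 for ppi1 and 105.1 for line 75-IV (distance 0.16 in log2 units), followed by AT2G32560 (0.20) and AT1G03746 (0.24). Nearest to LTI30 were AT2G07140 (0.19), IAGLU, an auxin glucosyltransferase gene (0.24), and AT2G23540 (0.25), all low in ppi1 and high in line 75-IV. IAGLU read 91.3 in wild-type seedlings, 38.6 in ppi1 and 144.3 in line 75-IV.

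SRC2 had as its neighbours AT4G38020 (0.15), AT2G19310 (0.23) and pEARLI4 (0.25). The signal of pEARLI4 was 143.0 on the wild-type array, 326.2 on the ppi1 array and 131.0 on that of line 75-IV. M17 had none close by. Its nearest gene, AT4G28080, was 0.76 away, at 309.0 for wild type, 84.0 for ppi1 and 258.1 for line 75-IV. With 3 arrays such likeness rests on 2 ratios that share the wild-type array.

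**Figure D4:**
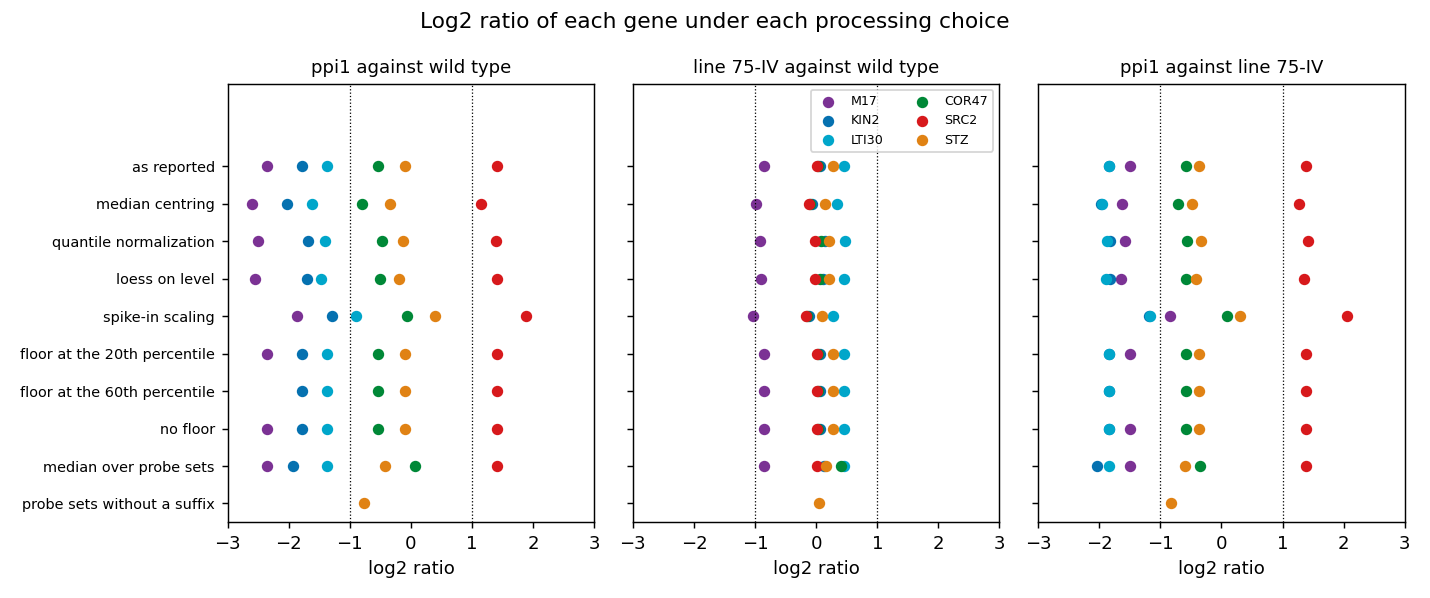
Log2 ratio of each of the 6 genes (coloured points) in the 3 comparisons under each processing choice (rows), with dotted lines at 2-fold. KIN2 stays below -1 and SRC2 above 1 in both comparisons of ppi1 wherever they are read, while LTI30 moves to -0.89 against wild type and M17 to -0.84 against line 75-IV under the spike-in scaling.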

How the data were processed

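The authors deposited 1 table of signals, on a linear scale, for 8297 probe sets on 3 arrays. Per the labels' protocols, RNA was primed with oligo-dT and transcribed into biotin-labelled cRNA. The software that computed the signals, and the level it scaled to, are not given in the sources used here. Means of the signals trimmed by 2% differed by less than 2%, so the deposited values were used unscaled, as log2. Gene results leave out 50 control probe sets. The annotation gave 3794 probe sets 1 gene, 70 several and 4433 none, and 3592 of 3602 genes were found in the RefSeq table (assembly TAIR10.1), whose coordinates are not used because the arrays name no build.

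The 40th percentile of all signals (14.8) served as the floor. A gene was read in a comparison if its brightest probe set lay above it on both arrays, and 2-fold is a rule of size, not a test. With 1 array per group there was no replicate, standard error or p-value. The number of arrays limits the precision. Alternatives were median centring, quantile normalization, loess (span 0.4), scaling to 9 spike-in probe sets, a lower (20th percentile), a higher (60th) or no floor, a gene's median probe set, only probe sets lacking a suffix, and thresholds of 1.5-fold and 3-fold. The members and the 10 gene lists (122 entries) were chosen with earlier results of these data known. Genes named are the members, list genes above the floor on at least 1 array, and for each member past 2-fold the 3 genes nearest in both ratios to wild type. ICL, M10 and AT3G15670, below the floor, and the genes under other observations were named after their values were seen. The code for the ratios was checked on simulated arrays with known differences, which says nothing about the error of these arrays. Python 3.11.15 with pandas 2.3.3 and statsmodels 0.14.6 was used.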

Additional observations from a re-analysis of the deposited data

How the results depend on the processing

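No paired analysis was possible because each group had 1 array. Leaving out an array would remove a group and was not done. Of 145 recomputed log2 ratios of the 6 genes, 130 kept their direction and their side of 2-fold and 15 did not. Of the ratios past 2-fold, 0 changed sign. A change of floor decides only whether a gene is read and cannot change its ratio. Nor can the median over probe sets change it for a gene with 1 probe set. Such ratios were bound to be kept, so the 130 overstate how well the ratios withstood other processing. Of the 15, 9 were made by the spike-in scaling. KIN2 ranged from -2.03 to -1.30 and SRC2 from 1.15 to 1.88 for ppi1 against wild type, and M17 from -2.60 to -1.87 where it was read.

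Among probe sets without a suffix 1 of the 6 genes, STZ, was left. The counts of members at least 2-fold lower or higher in ppi1 thus went from 3 and 1 to 0 and 0, against wild type and against line 75-IV. The counts over the list genes, which include the 6 members, went from 4 to 0 in both. Those 4 were all members, and 0 of the other list genes were past 2-fold in either comparison as reported. At 3-fold, the members higher in ppi1 went from 1 to 0, those lower from 3 to 2 and the list genes from 4 to 2 in both comparisons. Against line 75-IV the list genes went from 4 to 7 without a floor, where signals near 0 enter. For line 75-IV against wild type, the members 2-fold lower went from 0 to 1 (M17) under the spike-in scaling and at 1.5-fold. The list genes there went from 0 to 1 under the spike-in scaling, 1 without a floor and 2 at 1.5-fold. The share of all genes was worked out only at 2-fold with the processing as reported, so nothing is read from these counts. Under the spike-in scaling the median log2 ratio of all genes was 0.57 for ppi1 against wild type. It was -0.12 for line 75-IV against wild type and 0.70 for ppi1 against line 75-IV. Signals close to the floor, as of M17 in ppi1 and COR15B, limit what their ratios show.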

Other observations

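A search of the gene table's names for 12 words on cold, drying, salt and late embryogenesis, added after the members' values were seen, found 9 more genes with a probe set of their own beside 5 of the 6 members. Of the 9, 5 were above the floor in both ppi1 and wild type, with a median log2 ratio of 0.11, the same as the 0.11 of all genes, and 0 of them differed by 2-fold, against 6.72% of all genes, a share at which 0 of 5 shows nothing particular. The drought-induced zinc finger gene DI19 read 2098.8 for wild type, 2261.6 for ppi1 and 1766.1 for line 75-IV. The LEA gene AT2G44060 was at 327.9, 369.3 and 379.3. Another LEA gene, AT2G46140, was at 41.1, 23.7 and 35.5, a log2 ratio of -0.79 for ppi1 against wild type. The LEA genes AtLEA4-1 and LEA18 and the gene DOR, named as a drought tolerance repressor, lay below the floor on all 3 arrays.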
